A study of Canis lupus familiaris with 12 samples.

Results

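The 6 miRNAs described are cfa-miR-532, cfa-miR-188, cfa-miR-500, cfa-miR-362, cfa-miR-660 and cfa-miR-502 of the dog (Canis lupus familiaris), written below without the prefix, chosen by name as the miRNAs that lie together within the gene CLCN5, out of 453 miRNAs listed for the series. All 6 were in the table, and all 6 were among the 284 miRNAs tested. They were measured in CHMm, a canine mammary gland tumor line from a metastatic lesion, and in its derivative CHMmTAM, resistant to tamoxifen (TAM). There were 3 small RNA libraries of each line, to ask which miRNAs differ between resistant and parental cells. CHMmTAM was selected with rising TAM over 10 months until it grew at 10 μM, was held at 10 μM for 1 month and then had 1 week without drug, while CHMm is the unselected parent. Both lines were grown in phenol-red-free medium with steroid-depleted serum. CHMmTAM is 1 selected line, so resistance and any other change during the months of selection cannot be told apart. The labels do not say that the 3 libraries of a line came from separate cultures. The p-values therefore measure only the spread between these libraries, which may be technical. The test draws that spread mostly from all tested miRNAs together, so an FDR or interval does not rest on a miRNA's own spread alone.

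A miRNA is cut from the hairpin of a longer primary transcript, and one strand of the hairpin's stem is loaded into an Argonaute protein, where bases near its 5′ end, the seed, select the mRNAs to be repressed. Neighbouring hairpins within one intron can be made from the same primary transcript, while the amount of each mature miRNA also depends on how well its hairpin is processed and how long the product lasts. CLCN5 encodes ClC-5, an endosomal chloride and proton exchanger best known from the kidney, where its loss causes Dent disease, and the miRNA cluster within it is shared by placental mammals. In the RefSeq genes of the dog assembly UU_Cfam_GSD_1.0, which is not the build named for the counts, CLCN5 lies on the X chromosome and holds 6 miRNA genes. Along the chromosome they are MIR532, MIR188, MIR500, MIR362, MIR660 and MIR502, and each of the 6 miRNAs has only 1 gene. The table names no arm of the hairpins, so each entry is described by its name alone. No entry for another arm or a lettered form of these miRNAs, or for miR-501, was listed. The mRNA of CLCN5 was not analysed here.

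The libraries held from 7512659 to 12482211 counts, at which 3 counts correspond to between 0.240 and 0.399 CPM (CPM is the count divided by the library's total and put on a common scale). miR-21 took from 50.2% to 54.5% of the counts of a library. Libraries of the same line differed by more than sampling noise, with a chi-square per degree of freedom of at least 26.3, and none was treated as a repeat of another. All 7 epithelial miRNAs of the marker list, the miR-200 family with miR-203 and miR-205, were tested, with a summed level of 25124 to 26471 CPM in CHMm and 22450 to 23736 CPM in CHMmTAM, and 3 of the 7 were called higher and 2 lower. Of the 7 muscle miRNAs, 4 of the 4 tested were called higher and miR-208a was at 0 throughout. Most of their summed level was miR-499, at a mean of 283 CPM in CHMm and 395 CPM in CHMmTAM. This summed level was 277 to 314 CPM in CHMm and 418 to 431 CPM in CHMmTAM. That of the 6 blood cell miRNAs was 4.92 to 6.29 CPM in CHMm and 11.9 to 15.0 CPM in CHMmTAM, with 2 of the 4 tested called higher. For the 4 neural miRNAs it was 2269 to 2407 CPM in CHMm and 1701 to 1752 CPM in CHMmTAM, with 1 of the 3 tested called lower. The liver miRNA miR-122 was at 1.45 to 3.27 CPM in CHMm and 2.43 to 4.65 CPM in CHMmTAM, and the endothelial miR-126 was at 0 in CHMm and at most 0.272 CPM in CHMmTAM. Their part in the values of the cluster was not tested.

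The summed level of the cluster was lower in the resistant line, and 4 of its 6 miRNAs were called lower. miR-532, miR-362, miR-502 and miR-500 fell in CHMmTAM to between 68.6% and 81.5% of their CHMm level, while miR-188 and miR-660 did not pass the test. Over all tested miRNAs 18.7% were called lower, 25.4% higher and 44.0% in either direction at an FDR below 0.05, so 4 of 6 called lower stands above the share of the whole table. Each FDR given here for a fold change comes from the quasi-likelihood test of edgeR, adjusted by the Benjamini-Hochberg method. The adjustment was over all 284 miRNAs in the main fit. With a library left out, it was over the 267 to 278 miRNAs still kept by the filter. Over the 6, the log2 fold changes had a median of -0.47, against 0.06 over all 284. None of the 6 passed both an FDR below 0.05 and a log2 fold change beyond 1 in either direction, the study's rule, which 11.3% of all tested miRNAs passed. In such bulk RNA, fewer cells that make a miRNA and less of it per cell cannot be told apart.

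miR-532, known to repress the transcription factor RUNX3, was the most abundant of the 6 and ranked 72 among the 284 tested miRNAs in CHMm and 85 in CHMmTAM. Its level was 408, 361 and 366 CPM in CHMm replicates 1, 2 and 3 and 262, 251 and 266 CPM in those of CHMmTAM. The 3 resistant libraries lay close together and all were below the lowest parental library, whereas CHMm replicate 1 stood above the other two of its line. The log2 fold change was -0.54 (standard error 0.07), which is 68.6% of the CHMm level with a 95% interval of 62.1% to 75.9%, with an edgeR FDR of 2.11e-12. Without CHMm replicate 1 the log2 fold change was -0.49. miR-532 rested on 2117 to 4197 counts per library, and its spread between CHMm libraries, a coefficient of variation of 6.82%, was larger than the 1.71% that counting alone gives.

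miR-362, known to repress the deubiquitinase CYLD, was the second in abundance. Its level was 92.8, 96.0 and 86.6 CPM in CHMm replicates 1, 2 and 3 and 64.3, 71.2 and 73.0 CPM in those of CHMmTAM. The lines did not overlap, and the lowest parental library was 13.6 CPM above the highest resistant one. The log2 fold change was -0.41 (standard error 0.09), or 75.4% of the CHMm level with a 95% interval of 67.0% to 84.9%, with an edgeR FDR of 1.39e-05.

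miR-502, known for a site in the mRNA of the histone methyltransferase SETD8, followed miR-362 in abundance. Its level was 40.1, 37.3 and 44.2 CPM in CHMm replicates 1, 2 and 3 and 27.1, 29.8 and 26.8 CPM in those of CHMmTAM. All resistant libraries were again below all parental ones. The log2 fold change of -0.53 (standard error 0.10) was almost that of miR-532, and MIR532 and MIR502 are the outermost genes of the cluster. It corresponds to 69.1% of the CHMm level with a 95% interval of 60.0% to 79.7%, with an edgeR FDR of 1.83e-06.

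miR-500, a miRNA that is also known to repress CYLD, had the smallest of the called changes. Its level was 23.0, 20.1 and 24.6 CPM in CHMm replicates 1, 2 and 3 and 18.1, 17.9 and 19.1 CPM in those of CHMmTAM. The lines did not overlap, but the gap was narrow, since CHMm replicate 2 was only 1.05 CPM above CHMmTAM replicate 3. The log2 fold change was -0.29 (standard error 0.12), or 81.5% of the CHMm level with a 95% interval of 69.1% to 96.2%, with an edgeR FDR of 0.0361. This call rested on nearly every library. The FDR was 0.0831 without CHMm replicate 1 and 0.196 without CHMm replicate 3. It was 0.101, 0.0766 and 0.0504 without CHMmTAM replicates 1, 2 and 3, and remained below 0.05 only without CHMm replicate 2, at 0.0280. The values of miR-532, miR-362, miR-502 and miR-500 made 4 of 6 miRNAs whose lines did not overlap in the lower direction, as 22.9% of all tested miRNAs did. Of all tested, 28.9% did so in the higher direction and 51.8% in either.

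miR-188, known from bone marrow, where it shifts stromal cells between bone and fat formation, lies next to miR-532, but its value was on the other side of 0 and did not pass the test. Its level was 13.5, 15.1 and 14.6 CPM in CHMm replicates 1, 2 and 3 and 17.5, 19.1 and 13.8 CPM in those of CHMmTAM. CHMmTAM replicates 1 and 2 were above every parental library, and replicate 3 lay within the range of CHMm. The log2 fold change was 0.23 (standard error 0.13) with a 95% interval of -0.03 to 0.49, and the FDR was 0.157. The interval excludes the fitted fold changes of the 4 called miRNAs. CHMmTAM replicate 3 decided the call of miR-188, since without it the log2 fold change was 0.35 and the FDR 0.0326, while without CHMmTAM replicate 2 the log2 fold change was 0.13. The coefficient of variation between the CHMmTAM libraries was 16.2%, against 7.81% from counting, on 110 to 223 counts.

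miR-660, known to repress the p53 regulator MDM2, was the least abundant of the 6. It had 16, 19 and 18 counts in CHMm replicates 1, 2 and 3 and 10, 20 and 7 counts in those of CHMmTAM. These are 2.19, 1.64 and 2.01 CPM in CHMm and 0.783, 1.81 and 0.879 CPM in CHMmTAM. The lines overlapped through CHMmTAM replicate 2, which lay within the range of CHMm while the other two resistant libraries were lower. As a share of all counts of its library, the 95% Wilson interval of CHMmTAM replicate 1 was 0.435 to 1.47 CPM and that of CHMm replicate 1 was 1.31 to 3.46 CPM, intervals that cover counting error only. The log2 fold change was -0.71 (standard error 0.39) with a 95% interval of -1.47 to 0.06, with an edgeR FDR of 0.135. At this depth the interval holds both 0 and the fold change of miR-532, so neither could be told from the other. Without CHMmTAM replicate 2 the log2 fold change was -1.21 and the FDR 0.0277.

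**Figure D1:**
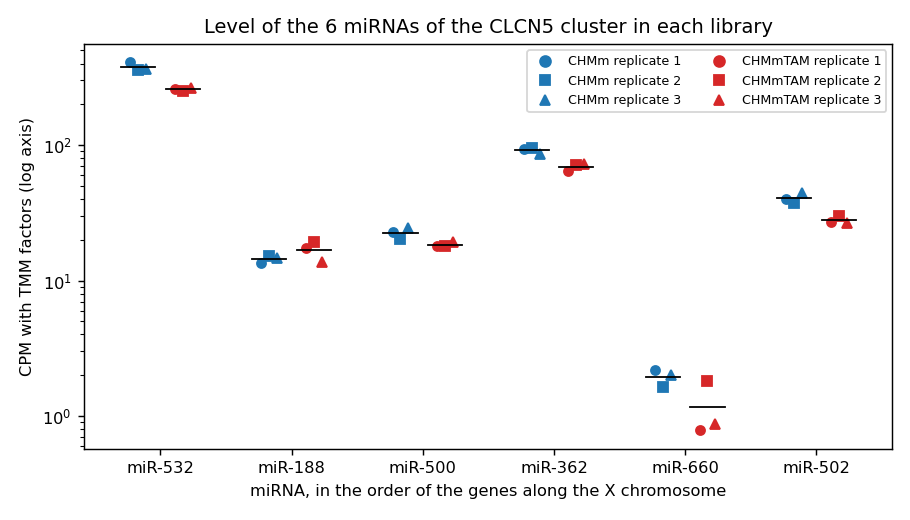
Level of each miRNA in each library in CPM with TMM factors (log axis), with the miRNAs in the order of their genes along the X chromosome, CHMm in blue, CHMmTAM in red, a marker shape per replicate and a bar at the mean of 3 libraries. The red points of miR-532, miR-500, miR-362 and miR-502 lie below all blue points, while those of miR-188 and miR-660 overlap with them.

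By mean CPM, which is not divided by length since mature miRNAs are of similar length, the order in CHMm was miR-532, miR-362, miR-502, miR-500, miR-188 and miR-660. The means of these ends were 378 ± 25.8 CPM and 1.95 ± 0.282 CPM (SD, n = 3 each), a ratio of 194 within one cluster. In CHMmTAM the order was the same, from miR-532 at 260 ± 7.75 CPM to miR-660 at 1.16 ± 0.569 CPM (SD, n = 3 each). Neighbours in this order were further apart than their spread, with 1 exception. miR-500 at 18.3 ± 0.659 CPM and miR-188 at 16.8 ± 2.71 CPM (SD, n = 3 each) overlapped in CHMmTAM, where the log2 ratio of miR-188 to miR-500 was -0.05, 0.10 and -0.47 in replicates 1, 2 and 3. In CHMm miR-188 was below miR-500 in every library, with log2 ratios of -0.76, -0.42 and -0.75.

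The position of a gene in the cluster did not order the changes. From MIR532 at one end to MIR502 at the other, the log2 fold changes were -0.54, 0.23, -0.29, -0.41, -0.71 and -0.53. The values therefore went from the lower to the higher side of 0 and back between the first 3 genes.

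The scaling between libraries moved all 6 values together. Under the 5 scalings compared, miR-532, miR-500, miR-362, miR-660 and miR-502 were lower in CHMmTAM in each, whereas miR-188 was higher in 4 and just below 0 with upper-quartile factors, at -0.016. Upper-quartile factors also took the median over the whole table from 0.06 to -0.18, and relative to that median miR-188 was still higher and the 4 called miRNAs still lower. With them 41 miRNAs of the whole table were called higher and 100 lower, and with RLE size factors 64 higher and 73 lower, against 72 higher and 53 lower with TMM.

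**Figure D2:**
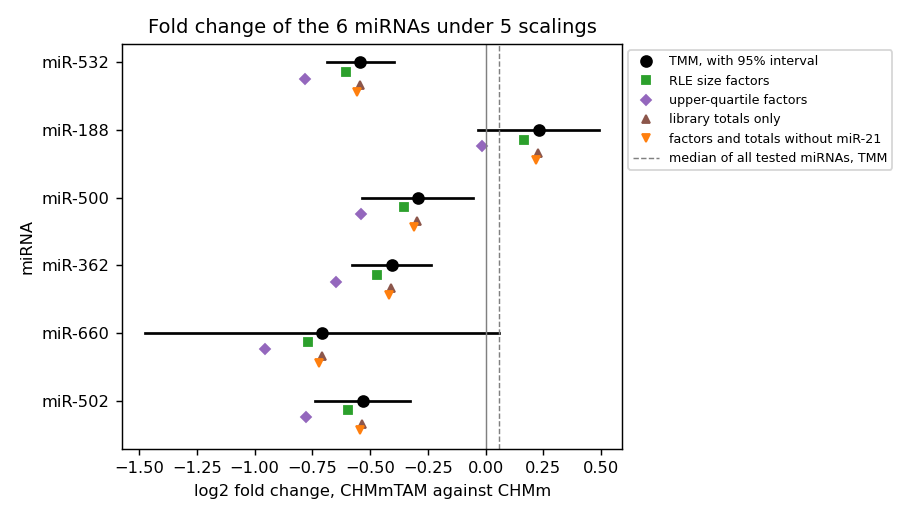
Log2 fold change of each miRNA in CHMmTAM against CHMm, with the TMM value and its 95% interval in black and the values under 4 other scalings as coloured symbols, a solid line at 0 and a dashed line at the median of all tested miRNAs, 0.06. miR-188 is on the right of 0 except with upper-quartile factors, and the interval of miR-660 is the widest, from -1.47 to 0.06.

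Summed over the 6 miRNAs, the cluster had 580, 531 and 538 CPM in CHMm replicates 1, 2 and 3 and 389, 391 and 400 CPM in those of CHMmTAM. The resistant libraries were within 10.1 CPM of each other and all below the parental ones. The mean was 550 ± 26.2 CPM (SD, n = 3 in each line) in CHMm and 393 ± 5.50 CPM in CHMmTAM, or 71.5% of the parental level. This sum is given as a description without a test, and it is mostly miR-532. Without miR-532 it was 171 ± 0.998 CPM in CHMm and 134 ± 6.06 CPM in CHMmTAM (SD, n = 3 each), 78.1% of the parental level, and the lines again did not overlap.

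Within the sum, the lines overlapped in the shares of miR-362, miR-502, miR-500 and miR-660 but not in those of miR-532 and miR-188. The shares of a library add up to the whole, so they do not move independently. The overlap of miR-500 was very narrow, and no such shares were computed for other miRNAs. miR-532 made up 70.4%, 68.0% and 68.0% of the cluster's counts in CHMm replicates 1, 2 and 3 and 67.2%, 64.2% and 66.6% in those of CHMmTAM, lower in every resistant library. miR-362 took 16.0% to 18.1% in CHMm and 16.5% to 18.3% in CHMmTAM, and miR-502 took 6.91% to 8.21% and 6.70% to 7.63%. The share of miR-500 was 3.79% to 4.57% in CHMm and 4.57% to 4.78% in CHMmTAM, and that of miR-660 was below 0.5% in every library. The share of miR-188 was 2.34%, 2.83% and 2.72% in CHMm replicates 1, 2 and 3 and 4.48%, 4.90% and 3.46% in those of CHMmTAM. It was higher in every resistant library, with means of 2.63% ± 0.262 and 4.28% ± 0.740 (SD, n = 3 each).

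Ratios between miRNAs of the same library do not depend on the scaling between libraries. They were compared, without a test, for the 10 pairs among the 5 miRNAs with at least 10 counts in every library, which leaves out miR-660. The lines did not overlap in 5 of the 10 pairs, which is below the 67.4% found over all pairs of miRNAs in the table with at least 10 counts in every library. Of the 4 pairs with miR-188, 3 did not overlap, which is near the share over all pairs, and these 4 are not independent of each other. Of the 6 pairs without it, 2 did not overlap, below that share.

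The ratio of miR-532 to miR-188 showed the widest difference of the 10 pairs. Its log2 value was 4.91, 4.58 and 4.64 in CHMm replicates 1, 2 and 3 and 3.91, 3.71 and 4.27 in those of CHMmTAM, a difference of -0.75 between the means. Every resistant library was below every parental one, and CHMmTAM replicate 3 was the nearest to CHMm. The ratio of miR-188 to miR-502 differed by 0.75 and that to miR-362 by 0.61 on the log2 scale, both without overlap, while that to miR-500 differed by 0.50 and overlapped. In contrast, the log2 ratio of miR-532 to miR-502 was 3.23 ± 0.156 in CHMm and 3.22 ± 0.129 in CHMmTAM (SD, n = 3 each), a difference of -0.0056. The ratios of miR-532 and of miR-502 to miR-500 were lower in CHMmTAM by 0.25 and 0.24 on the log2 scale without overlap. How reads that fit several miRNAs were counted is not given, and its part in the ratio of miR-502 to miR-500 was not tested. miR-362 overlapped in its ratios to miR-532, miR-502 and miR-500.

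**Figure D3:**
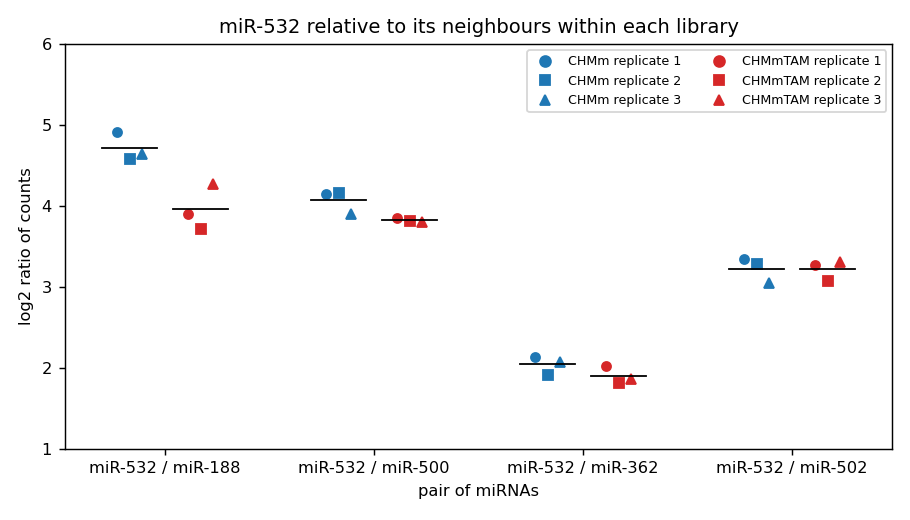
Log2 ratio of the counts of miR-532 to those of miR-188, miR-500, miR-362 and miR-502 within each library, CHMm in blue, CHMmTAM in red, a marker shape per replicate and a bar at the mean of 3 libraries. The means for miR-188 are 4.71 and 3.96, and those for miR-502 are 3.23 and 3.22.

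Other miRNAs of the X chromosome gave a background for the location. By name, 281 of the 284 tested miRNAs were matched to RefSeq genes, and 28 others had all their genes on the X chromosome. Of these 28, 7 were called lower and 3 higher, with a median of 0.04 on the log2 scale, against 4 lower and 0 higher of the 6 in CLCN5. The median standard error was 0.18 over the 28 and 0.11 over the 6, so a change of the same size was less easily called among the 28. The other clusters on this chromosome had changes of different size and sign. miR-221 and miR-222 were both called lower, at log2 fold changes of -1.52 and -1.36, past every value of the 6 miRNAs. The 5 tested miRNAs of the cluster with miR-424, miR-503, miR-450a, miR-450b and miR-542 were at -0.28 to 0.16, with 2 called lower. miR-106a, miR-18b and miR-20b were at 0.18 to 0.70, with 2 of the 3 called higher. Outside these clusters, miR-421, miR-374a and miR-8908c were called lower, at -0.53, -0.18 and -0.94, and miR-505 was called higher, at 0.63. miR-421 was at 48.8 CPM in CHMm and 33.8 CPM in CHMmTAM, a fold change close to those of miR-532 and miR-502.

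**Figure D4:**
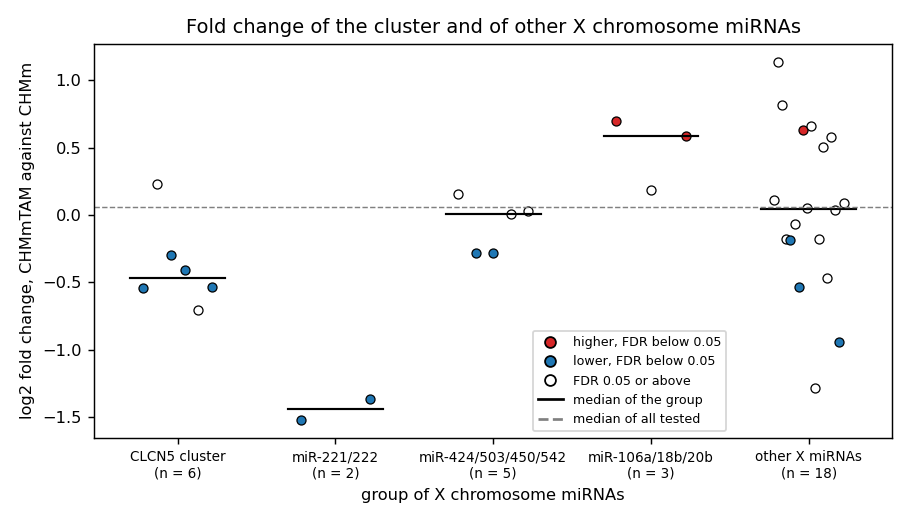
Log2 fold change in CHMmTAM against CHMm for the 6 miRNAs in CLCN5 and for the other tested X chromosome miRNAs by cluster, filled in blue where called lower, in red where called higher and in white where the FDR was 0.05 or above, with a black line at the median of each group and a dashed line at the median of all tested miRNAs. The medians are -0.47 for the 6 miRNAs in CLCN5 and -1.44, 0.0067 and 0.58 for the 3 other clusters.

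Among the 115 other miRNAs with a mean of at least 50 CPM, the 5 with the pattern most like that of the summed cluster were miR-26b, miR-92b, miR-26a, miR-874 and miR-148a. Likeness was measured as the Euclidean distance between log2 CPM values centred over the 6 libraries, and it ranged from 0.108 for miR-26b to 0.208 for miR-148a, against a median of 0.692 over all 115. Their log2 fold changes were between -0.44 and -0.56. The distance includes the difference between the lines, so fold changes near that of the sum follow from how the 5 were picked. By the same measure miR-532 was at 0.0972 from the sum that it dominates, miR-362 at 0.206, miR-502 at 0.247 and miR-500 at 0.308. miR-188 was at 0.947 and miR-660 at 1.06. Of the 6, miR-502, miR-500, miR-188 and miR-660 had means under 50 CPM, where counting error adds to the distance, so their distances are not set against the median of the 115.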

How the data were processed

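For the 6 small RNA libraries, the table deposited by the authors gives unnormalized read counts, with a row for each mature miRNA and 1 column per library. The submitters' processing notes name HISAT2 2.0.4, BWA and the build CanFam3.1 without tying them to a library type. Trimming, the counting tool, the miRNA database and the handling of reads matching more than 1 miRNA are not given in the sources used here and could shift reads from one miRNA to a close relative. Libraries were grouped by their titles. In edgeR 4.0.16 (R 4.3.3), rows summing to 10 or more counts were kept, TMM factors computed, and the lines contrasted with the quasi-likelihood test, with Benjamini-Hochberg adjustment over all miRNAs tested. Standard errors and 95% intervals were derived from the log2 fold change and its F statistic, so they too rest on variance shared over miRNAs. A call is an FDR below 0.05. The fit was tested on simulated data whose changes were larger than those of the 6 miRNAs in the main fit, so calls of their size were not covered. Alternatives were RLE size factors, upper-quartile factors, library totals only, factors and totals without miR-21, the Wald test of DESeq2 1.42.0, no low-count filter, the default filter of edgeR, a replicate block and each library left out. Descriptions used Python 3.11.15, pandas 2.3.3, NumPy 2.4.6 and SciPy 1.17.1. The rule for named miRNAs took the 6 in CLCN5 and the 5 nearest to their sum among those of at least 50 CPM on average. miR-21, marker miRNAs and other X chromosome miRNAs are named beside them as background. Members, marker lists and comparisons were chosen with earlier results of these data known. The 6 RNA-seq libraries were not analysed here. miRNAs sharing a seed were not compared, as mature sequences were not used here, and no coordinates are given because the RefSeq assembly differs from CanFam3.1.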

Additional observations from a re-analysis of the deposited data

How the results depend on the processing

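Of the 84 log2 fold changes of the 6 miRNAs under the alternatives, 74 stayed on the same side of 0 and of an FDR of 0.05. A call was lost in 6 and gained in 3, each on the same side of 0 as in the main fit, and 1 value reversed. The calls gained were miR-188 as higher without CHMmTAM replicate 3, and miR-660 as lower with upper-quartile factors and without CHMmTAM replicate 2. miR-532, miR-362 and miR-502 were called lower under every alternative, at -0.78 to -0.49, -0.65 to -0.33 and -0.78 to -0.47. Upper-quartile factors reversed miR-188 to -0.016 and brought miR-660 past the threshold at -0.95. Without the low-count filter miR-500 was at -0.29 with an FDR of 0.0510 (edgeR), where more miRNAs entered the adjustment. Leaving out each library gave -0.37 to -0.23 for miR-500, 0.13 to 0.35 for miR-188 and -1.21 to -0.41 for miR-660. The log2 ratio of the cluster's sum was -0.48 with TMM, -0.55 with RLE size factors and -0.72 with upper-quartile factors, shifts that follow from the scaling, and -0.50 to -0.44 when each library was left out. With a replicate block 4 of the 6 were again called, and 126 miRNAs in all against 125. The deviations of same-numbered libraries had correlations of 0.06, 0.46 and -0.31 for numbers 1, 2 and 3 over 117 miRNAs, without a common sign. These values do not settle whether libraries of the same number were paired. At 7 to 20 counts per library, depth limits miR-660 most.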
